A study of Mus musculus with 7 samples.

Results

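The genes described here encode parts of insulin and insulin-like growth factor (IGF) signalling, and 10 were chosen by name: the receptors Insr and Igf1r, the receptor substrates Irs1, Irs2 and Irs4, the ligand Igf1, and the IGF-binding proteins Igfbp2, Igfbp3, Igfbp4 and Igfbp5. All 10 were found by Ensembl identifier among the 55384 genes of the deposited table, and all 10 were among the 18282 genes that passed the filter on low counts. The RNA came from the AVPV (anteroventral periventricular nucleus), where kisspeptin neurons of the preoptic area lie, of female C57BL/6 mice of the genotype Kiss1Cre+/Rpl22HA+/+. Cre recombinase made under Kiss1 control switches on an HA tag on the ribosomal protein Rpl22, and RNA bound to tagged ribosomes was pulled down (RiboTag) from punches pooled over 4 brains per library. The GDX group held 4 libraries, labelled as having no estradiol (E2) and described as ovariectomized, and the E2 group held 3 libraries from estradiol-treated females. Whether the E2 females were also ovariectomized, their age, and the dose and duration of estradiol are not given in the sources used here. Any cell with Kiss1-driven Cre carries the tag, whatever its other properties, and RNA of the whole punch was not analysed here, so enrichment over the tissue was not measured.

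Insulin and IGF1 bind related receptor tyrosine kinases, which phosphorylate insulin receptor substrate (IRS) proteins. These substrates recruit PI3 kinase, which activates AKT, and the same receptors feed the RAS and ERK cascade through adaptors such as GRB2. IGF-binding proteins hold IGFs outside the cell and set how much of them reaches the receptor. In the hypothalamus, insulin and IGF1 report on energy stores and growth, and signalling through IRS proteins is known to bear on feeding and female fertility.

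Of the 10 genes, Irs2 alone rose with estradiol, from 89.3 ± 5.38 CPM (SD, n = 4) in GDX to 140 ± 9.97 CPM (SD, n = 3) in E2, 1.56-fold, where CPM are counts scaled to library size. None of the 10 was called lower, though every E2 library lay below every GDX library for Igfbp5. Of all tested genes 3.88% were called in either direction, 2.55% higher and 1.33% lower, at a Benjamini-Hochberg adjusted p under 0.05 in edgeR's quasi-likelihood test. The count of all called genes, 710, went to 364, 418 and 458 without E2 replicates 1, 2 and 3. For the other 9 genes the levels in 1 library, GDX replicate 4, stood above all 6 others. Across all tested genes GDX replicate 4 was the highest library for 21.6%. The median log2 fold change, E2 over GDX, of the 10 genes was −0.12 with all libraries and 0.08 without GDX replicate 4, beside 0.00 for all tested genes in either fit.

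**Figure D1:**
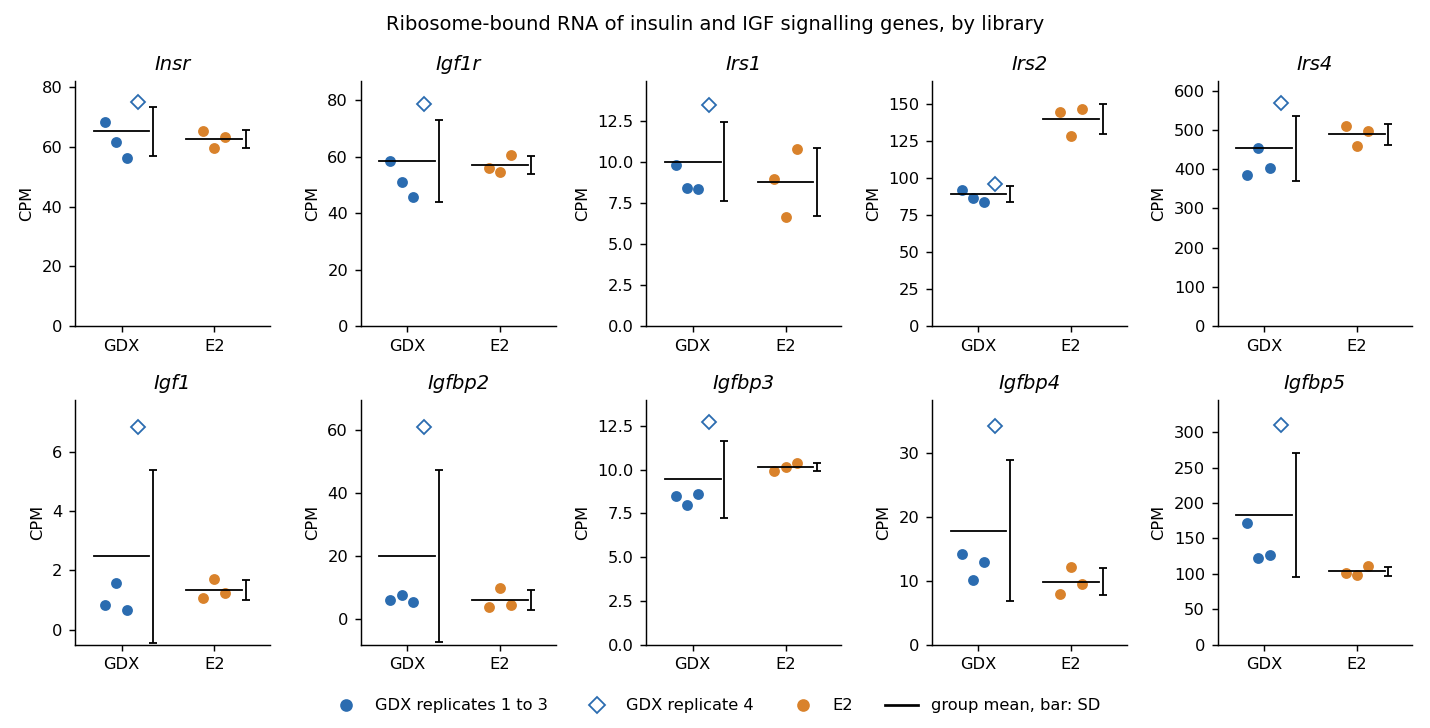
Level of each gene (CPM, y axis, a separate linear scale per panel) in the 4 GDX and 3 E2 libraries, with group means (horizontal lines) and SD (bars, which reach below 0 for Igf1 and Igfbp2). Irs2 separates the groups with every E2 library above every GDX library, and the open diamond, GDX replicate 4, is the highest point of the other 9 panels.

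Libraries held 29207544 to 36213127 counts, so that 3 counts, the limit below which a gene is not distinguished from 0, lay at 0.0818 to 0.101 CPM. All 8 leptomeningeal fibroblast markers were highest in GDX replicate 4, where their summed level was 1334 CPM against 127 to 194 CPM in the other GDX libraries and 145 to 198 CPM in E2. All 7 endothelial and all 6 mural markers were also highest there, as were 5 of 6 ependymal and 5 of 8 astrocyte markers, beside 21.6% of all tested genes. The same held for 2 of 5 oligodendrocyte precursor, 1 of 6 choroid plexus and 1 of 8 kisspeptin neuron markers. It held for none of the 8 microglial, 8 oligodendrocyte, 8 pan-neuronal and 10 neighbouring neuron markers. The score of AVPV kisspeptin neuron markers, their mean log2 CPM, was 7.35 to 7.68 in GDX and 8.20 to 8.30 in E2 (difference 0.75, two-sided exact permutation p = 0.0286, the smallest that 35 splits allow). Of its 8 markers all were detected, and 4 rose, with log2 fold changes of 2.64 for Kiss1, 2.05 for Pgr, 0.89 for Th and 0.43 for Gad2. Esr1 went the other way without passing (−0.39, edgeR adjusted p = 0.0901). Gad1, Slc17a6 and Slc32a1 differed by 0.09, 0.14 and 0.07 and did not pass. Pan-neuronal markers scored 8.16 to 8.28 in GDX and 8.29 to 8.39 in E2 (exact permutation p = 0.0571). Scores of the other lists differed, E2 minus GDX, by −0.98 for mural, −0.98 for endothelial, −0.84 for leptomeningeal, −0.81 for astrocyte, −0.66 for ependymal, −0.22 for oligodendrocyte, −0.20 for oligodendrocyte precursor, −0.10 for choroid plexus, −0.01 for microglial and 0.18 for neighbouring neuron markers. Their exact permutation p values were 0.0571, 0.0571, 0.657, 0.0857, 0.0571, 0.743, 0.2, 0.714, 0.971 and 0.6 in that order, unadjusted over 12 lists. Without GDX replicate 4 the leptomeningeal difference was −0.03. This RNA was pulled down from pooled tissue. Fewer cells of a type, less RNA per cell and less carry-over of RNA from untagged cells cannot be told apart in it. Since each library is a pool, p-values measure the spread between pools.

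Compared per kilobase of exon, the scale on which genes of different length can be set side by side, Irs4 had the highest mean level over the 7 libraries, 74.4 CPM per kilobase (range 61.0 to 90.3). Igfbp5 followed with 24.7 (16.3 to 51.6) and Irs2 with 17.5 (13.2 to 23.2) CPM per kilobase. Then came Igfbp2 at 7.63 (2.20 to 33.1), Insr at 4.67 (4.09 to 5.46) and Igf1r at 3.44 CPM per kilobase (2.73 to 4.68). Igfbp4 at 3.27 (1.81 to 7.75) and Igfbp3 at 3.12 CPM per kilobase (2.55 to 4.06) were close to Igf1r. Irs1 lay at 1.04 (0.725 to 1.48) and Igf1 was lowest at 0.201 CPM per kilobase (0.0666 to 0.688). Irs4 was above Igfbp5, Insr above Igf1r, Igfbp3 above Irs1 and Irs1 above Igf1 in each of the 7 libraries. The order of Igfbp5 and Irs2 turned between the groups, since Igfbp5 was the higher in all 4 GDX libraries (mean 30.4 against 14.1 CPM per kilobase) and Irs2 in all 3 E2 libraries (22.1 against 17.2). Igfbp4 was above Igfbp3 in 3 of 4 GDX libraries and in 0 of 3 E2 libraries. The place of Igfbp2 rests on GDX replicate 4, without which its mean was 3.40 CPM per kilobase, below Insr at 4.54, and Igfbp2 was above Insr in 2 of the 7 libraries. Without that library Igfbp4, at 2.52, also came below Igfbp3, at 2.96 CPM per kilobase, and Igf1 was at 0.12. These means by group and without GDX replicate 4 were added after the data were seen.

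**Figure D2:**
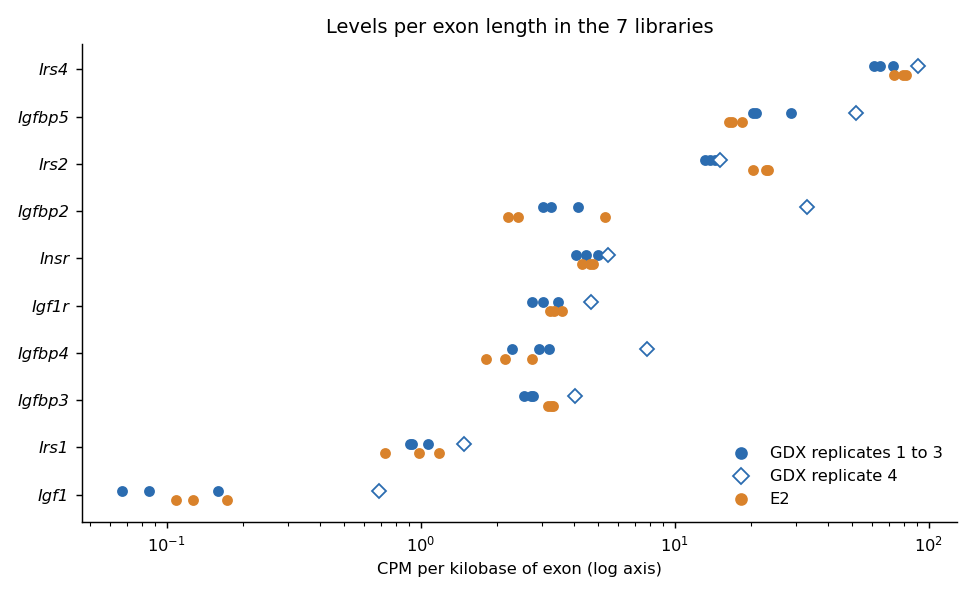
Level per kilobase of exon (x axis, log scale) of each gene in each of the 7 libraries, in order of the mean. Irs4 lies apart at the top with 61.0 to 90.3 CPM per kilobase, and Igf1 lies lowest with 0.0666 to 0.688.

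Both receptors were present at similar levels in the 2 groups. Insr (ENSMUSG00000005534, chr8:3122061-3279617, minus strand, GRCm38), the insulin receptor, had 68.4, 61.6, 56.2 and 75.1 CPM in GDX replicates 1 to 4 and 65.3, 59.6 and 63.5 CPM in E2 replicates 1 to 3. The 3 E2 libraries lay inside the GDX range, and the log2 fold change was −0.06 ± 0.10 (SE, edgeR adjusted p = 0.851). Igf1r (ENSMUSG00000005533, chr7:67952827-68233668, plus strand), the IGF1 receptor, had 58.4, 51.0, 45.9 and 78.6 CPM in GDX and 56.0, 54.4 and 60.6 CPM in E2. Its groups also overlapped, with GDX replicate 4 the highest, and the log2 fold change was −0.04 ± 0.16 (edgeR adjusted p = 0.948). Without GDX replicate 4 these became 0.02 ± 0.09 for Insr and 0.14 ± 0.10 for Igf1r, where neither passed (edgeR adjusted p = 0.969 and 0.571). Per kilobase, Insr exceeded Igf1r 1.17 to 1.50 times in GDX and 1.28 to 1.42 times in E2, the lowest ratio being that of GDX replicate 4.

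Of the substrates, Irs2 rose, and Irs4 and Irs1 did not pass. Irs2 (ENSMUSG00000038894, chr8:10984681-11008458, minus strand) encodes a substrate that carries insulin and IGF1 signals in brain and pancreatic islets. It had 91.5, 86.6, 83.5 and 95.7 CPM in GDX replicates 1 to 4 and 144, 128 and 147 CPM in E2 replicates 1 to 3. Every E2 library was above every GDX library, and GDX replicate 4 lay close to the other GDX libraries, at 1.10 times their mean. The log2 fold change was 0.65 ± 0.08 (SE, edgeR adjusted p = 0.000592). Over 18 alternative fits it ranged from 0.58 to 0.73, the adjusted p ranged from 2.3e-10 to 0.00748, and Irs2 was called in all 18. Without GDX replicate 4 the log2 fold change was 0.68 ± 0.08 (edgeR adjusted p = 8.2e-05), and with the non-neuronal marker score in the model it was 0.73 (edgeR adjusted p = 0.000677). An opposite-strand gene, 9530052E02Rik, shares 162 bp of exon with Irs2 in these unstranded libraries, at 0.0559 to 0.560 CPM.

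Irs4 (ENSMUSG00000054667, chrX:141710998-141725263, minus strand), a substrate known for its expression in the hypothalamus, had 384, 455, 404 and 569 CPM in GDX and 509, 459 and 498 CPM in E2. The 3 E2 libraries were above GDX replicates 1 to 3 and below GDX replicate 4. Its log2 fold change was 0.11 ± 0.12 with all libraries (edgeR adjusted p = 0.738) and 0.24 ± 0.08 without GDX replicate 4 (edgeR adjusted p = 0.121). Irs1 (ENSMUSG00000055980, chr1:82233101-82291416, minus strand), the substrate prominent in muscle and fat, had 9.82, 8.42, 8.32 and 13.5 CPM in GDX and 8.97, 6.63 and 10.8 CPM in E2. The groups overlapped, with the lowest library in E2 and the highest in GDX, and the log2 fold change was −0.19 ± 0.22 (edgeR adjusted p = 0.755). Irs1 shares 2822 bp of exon with the opposite-strand gene Gm9747, itself at 5.91 to 9.36 CPM, so the level of Irs1 is uncertain. Irs4 shares 383 bp with the opposite-strand Gm15295, at 0 to 0.429 CPM.

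Within the 3 substrates, summed per kilobase, the share of Irs2 was 14.2% to 18.9% in GDX and 21.6% to 22.4% in E2, with no overlap. The share of Irs4 was 79.7% to 84.5% in GDX and 76.5% to 77.6% in E2. Irs4 thus had the largest share in all 7 libraries. Irs1 made up 1.06% to 1.40% in GDX and 0.771% to 1.14% in E2. These shares are derived from the levels already tested for each gene and carry no further test.

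The promoters of the 3 substrates are shown because Irs2, which rose, and Irs4, which did not pass, share their longest common word of letters there. RefSeq promoters on GRCm38.p6, running from 250 bases before to 50 bases after the start, matched 9 of the 10 genes by symbol. The windows below are read 5′ to 3′ on the gene's strand, all on the minus strand. They are chr1:82291513-82291646 for Irs1, chr8:11008930-11009065 for Irs2 and chrX:141725327-141725463 for Irs4. Capitals mark the word in Irs2 and Irs4, and in Irs1 a shorter form of it.
Irs1: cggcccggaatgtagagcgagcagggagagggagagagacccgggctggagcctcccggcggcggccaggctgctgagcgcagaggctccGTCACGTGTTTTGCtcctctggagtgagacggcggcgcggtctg
Irs2: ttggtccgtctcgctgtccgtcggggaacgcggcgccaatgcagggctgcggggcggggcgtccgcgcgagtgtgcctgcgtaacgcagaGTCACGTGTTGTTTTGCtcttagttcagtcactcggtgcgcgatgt
Irs4: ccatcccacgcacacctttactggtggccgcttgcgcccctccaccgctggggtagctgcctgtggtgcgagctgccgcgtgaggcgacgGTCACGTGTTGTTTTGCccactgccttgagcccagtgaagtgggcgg
The 17-base word was taken from the promoters of Irs2 and Irs4, so its matches in these 2 were fixed in advance. Searching both strands, it was found in 2 of 32851 promoters (0.00609%), those of these 2 genes. Counted from the RefSeq start, the word lies 46 to 30 bases before it in Irs2 and 156 to 140 bases before it in Irs4. The RefSeq start of Irs2 lies upstream of the gene end given earlier, chr8:11008458, so such distances depend on the annotation. The form in Irs1 is 3 bases shorter and lies 117 to 104 bases before the start. It was searched for with the ends of the word, and the longest exact word Irs1 shares with Irs2 or with Irs4 is 10 bases. Each form contains the palindrome CACGTG, an E-box, which 7.15% of all promoters hold and which 4 of the matched genes hold (Irs1, Irs2, Irs4 and Igfbp2). Since CACGTG is part of the word, its matches in Irs1, Irs2 and Irs4 follow from how the word and its Irs1 form were chosen. The count of 4 can therefore not be set against the share of all promoters. The full estrogen response element, searched as GGTCA followed after any 3 bases by its reverse complement, is held by 0.07% of promoters and by none of the 9 matched genes. The shorter half-site GGTCA matched Igf1r, Irs4, Igf1 and Igfbp2 and 40.5% of all promoters, and in Irs4 it overlaps the shared word. The word was noticed after the sequences were seen, and these matches are descriptions of letters only.

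The ligand gene Igf1 (ENSMUSG00000020053, chr10:87858265-87937042, plus strand), which encodes insulin-like growth factor 1, was the lowest of the 10 genes. It had 0.845, 1.58, 0.659 and 6.81 CPM in GDX replicates 1 to 4 and 1.08, 1.71 and 1.26 CPM in E2, or 24 to 244 counts a library. GDX replicate 4 was 6.63 times the mean of the other GDX libraries, and the remaining 6 libraries overlapped. The log2 fold change of −0.87 ± 0.80 (edgeR adjusted p = 0.668) became 0.40 ± 0.49 without that library (edgeR adjusted p = 0.774), so its direction rests on GDX replicate 4.

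None of the 4 IGF-binding protein genes passed the test, and all 4 were highest in GDX replicate 4. Igfbp2 (ENSMUSG00000039323, chr1:72824503-72852474, plus strand), a binding protein abundant in cerebrospinal fluid, had 6.03, 7.68, 5.60 and 61.0 CPM in GDX and 4.07, 9.79 and 4.46 CPM in E2. GDX replicate 4 was 9.48 times the mean of the other GDX libraries, whose range lay inside that of E2. The log2 fold change was −1.72 ± 1.15 (edgeR adjusted p = 0.551) and −0.08 ± 0.31 without GDX replicate 4 (edgeR adjusted p = 0.951). Igfbp4 (ENSMUSG00000017493, chr11:99041244-99054392, plus strand), which binds IGFs and is cleaved by the protease PAPP-A, had 14.2, 10.1, 12.9 and 34.2 CPM in GDX and 7.98, 12.1 and 9.48 CPM in E2. Of its E2 libraries 2 lay below every GDX library and 1 lay within the GDX range. The log2 fold change was −0.86 ± 0.44 (edgeR adjusted p = 0.403) and −0.33 ± 0.19 without GDX replicate 4 (edgeR adjusted p = 0.439).

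Igfbp5 (ENSMUSG00000026185, chr1:72857932-72874884, minus strand), a secreted binding protein that also attaches to extracellular matrix, had 172, 122, 126 and 310 CPM in GDX and 101, 98.2 and 111 CPM in E2. Every E2 library lay below every GDX library, with or without GDX replicate 4. Such separation was seen for 2 of the 10 genes, Igfbp5 and Irs2, and for 16.5% of all tested genes. The log2 fold change was −0.82 ± 0.37 (edgeR adjusted p = 0.341) and −0.44 ± 0.12 without GDX replicate 4 (edgeR adjusted p = 0.0647), so Igfbp5 was not called in either fit. Endothelial marker scores were 4.58 to 5.94 in GDX and 3.74 to 4.53 in E2, and mural scores 3.91 to 5.52 and 3.27 to 3.79. Both were also without overlap between groups (exact permutation p = 0.0571 for each). This was not particular to vascular markers. Astrocyte scores (6.51 to 7.59 in GDX, 6.06 to 6.32 in E2) and ependymal scores (2.20 to 3.05 in GDX, 1.76 to 2.11 in E2) did not overlap either. Pan-neuronal and kisspeptin neuron scores were higher in E2, again without overlap. With the score over all non-neuronal markers as a covariate the log2 fold change of Igfbp5 was −0.01. That covariate was itself 4.10 to 5.07 in GDX and 3.81 to 4.10 in E2. Its part and that of the treatment can therefore not be told apart in 7 libraries. The part of any cell type in the levels of Igfbp5 was not tested.

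Igfbp3 (ENSMUSG00000020427, chr11:7206086-7213923, minus strand), the main carrier of IGFs in blood, had 8.48, 7.98, 8.63 and 12.7 CPM in GDX and 9.96, 10.2 and 10.4 CPM in E2. The 3 E2 libraries lay close together, above GDX replicates 1 to 3 and below GDX replicate 4. The log2 fold change was 0.10 ± 0.19 (edgeR adjusted p = 0.852) and 0.28 ± 0.17 without GDX replicate 4 (edgeR adjusted p = 0.457). Summed per kilobase, Igfbp2 to Igfbp5 reached 37.8, 29.4, 29.7 and 96.4 CPM per kilobase in GDX and 23.9, 27.6 and 26.3 in E2. Igfbp5 made up most of that sum in every library, 53.5% to 75.7%, and Igfbp2 34.3% of it in GDX replicate 4 against 8.63% to 14.2% in the other GDX libraries. Igfbp2 and Igfbp5 are neighbours on chromosome 1, tail to tail and 5457 bp apart, and were 9.48 and 2.21 times the mean of the other GDX libraries in GDX replicate 4.

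**Figure D3:**
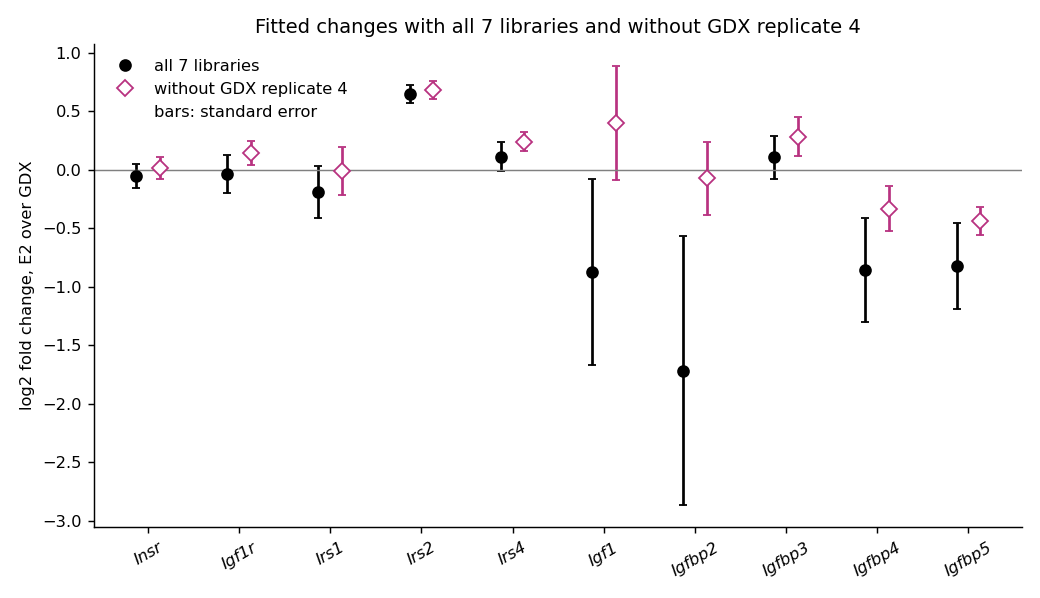
Fitted log2 fold change, E2 over GDX (y axis), with its standard error, for each gene with all 7 libraries (filled) and without GDX replicate 4 (open). Irs2 stays at 0.65 and 0.68, while Igf1 moves from −0.87 to 0.40 and Igfbp2 from −1.72 to −0.08.

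Igf1, Igfbp2, Igfbp3 and Igfbp4 had GDX replicate 4 beyond Dixon's outlier limit on the high side of the GDX group, 4 of the 10 genes against 1.82% of all tested genes. In the same library the 8 leptomeningeal markers were 5.94 (Lum) to 17.5 (Slc22a6) times the mean of the other GDX libraries. Kiss1 was also past the limit there, at 114 CPM, 2.23 times the mean of the other GDX libraries. The part of leptomeningeal, vascular or other cells in these levels was not tested. Irs2, at 1.10 times, Insr, at 1.21 times, and Irs4, at 1.37 times, had the smallest excess in GDX replicate 4 among the 10 genes.

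**Figure D4:**
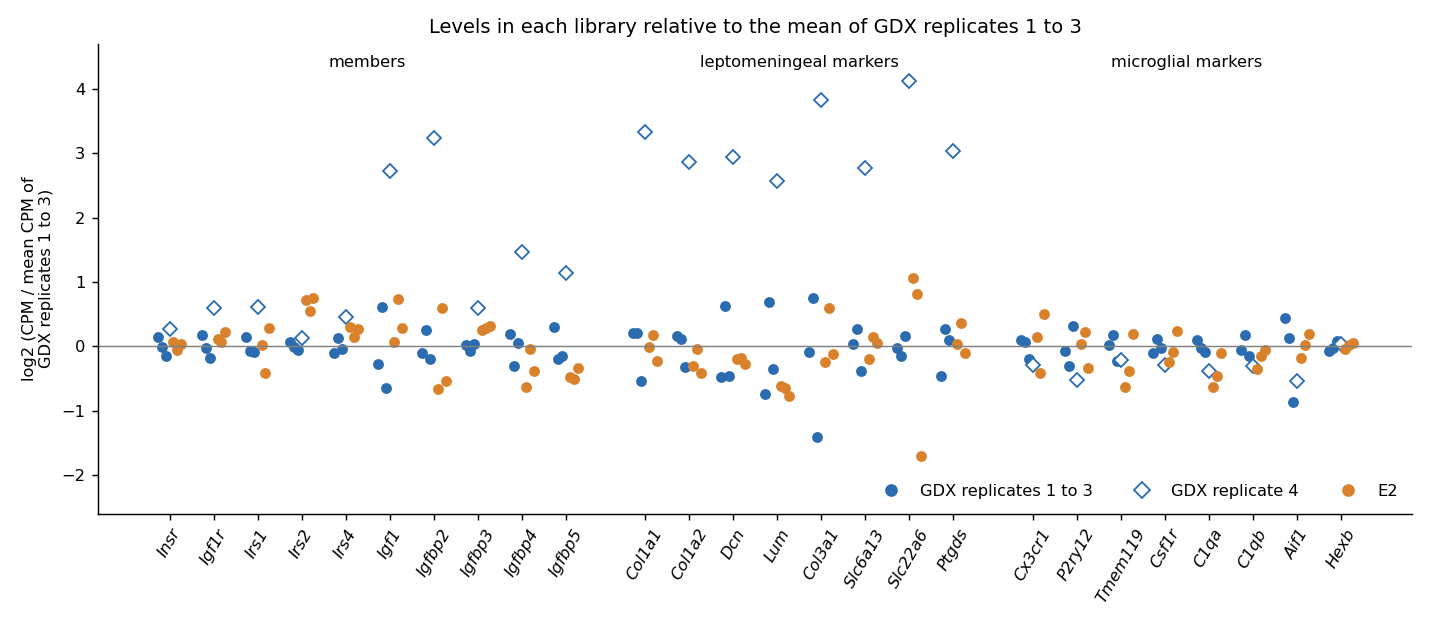
Level of each gene in each library as log2 of its ratio to the mean of GDX replicates 1 to 3 (y axis), for the 10 genes, 8 leptomeningeal fibroblast markers and 8 microglial markers. GDX replicate 4 (open diamond) is the highest point for 9 of the 10 genes and all 8 leptomeningeal markers, and for none of the microglial markers.

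For Irs2 and the 4 genes with an outlying library, the genes most like each were found by the root mean square difference of centred log2 CPM over the 7 libraries, among 12159 tested genes averaging 5 CPM or more. The 3 nearest to Irs2 were Lpgat1, an acyltransferase gene (0.0326), Mgat5, which branches N-glycans (0.0478), and Klhl21, an adaptor of a ubiquitin ligase (0.0512). Each of these also rose, with log2 fold changes of 0.66 for Lpgat1, 0.69 for Mgat5 and 0.65 for Klhl21 (edgeR adjusted p = 0.00022, 0.000515 and 0.00205). Since these genes were picked for profiles like that of Irs2, their rise follows from that choice and is no separate result. For Igf1 the nearest were Igf2 (0.293), the transporter gene Slc6a13 (0.294) and Myof (0.325), and for Igfbp2 the sulfate transporter gene Slc13a4 (0.313), Bmp6 (0.326) and the collagen gene Col1a2 (0.326). Slc6a13 and Col1a2 are also on the leptomeningeal list. For Igfbp4 they were Uaca (0.133), S100a11 (0.143) and Gas1 (0.160), and for Igfbp3 the BMP mediator gene Smad9 (0.0620), the Notch mediator gene Rbpj (0.0688) and Cyp20a1 (0.0764). A small difference says only that levels moved alike over these 7 libraries.

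Around these genes, 83 others of the pathway were listed in 8 groups, of which 79 were tested, 2 rose, none fell and 77 did not pass. The 2 are 2.53% of those tested, beside 3.88% of all tested genes, and the median log2 fold change was 0.03. Map2k1, which encodes the kinase MEK1 of the RAS and ERK arm, had 287, 297, 321 and 303 CPM in GDX and 425, 415 and 441 CPM in E2. Every E2 library was higher, the log2 fold change was 0.50 ± 0.06 (edgeR adjusted p = 0.000796), and the call was made in all 18 alternative fits. Socs1, an inhibitor of cytokine and insulin receptor signalling, had 2.56, 2.82, 2.64 and 2.35 CPM in GDX and 6.10, 5.67 and 4.26 CPM in E2. Its log2 fold change was 1.04 ± 0.24 (edgeR adjusted p = 0.0302). That call was lost in 7 of 17 alternative fits. These were the fits without GDX replicate 1 (edgeR adjusted p = 0.0909) or 2 (0.0567), without E2 replicate 1 (0.175) or 2 (0.122), without GDX replicates 1 and 4 (0.107), with the replicate block (0.124) and with the non-neuronal covariate (0.238). The count of 2 dropped to 1 when GDX replicate 1, GDX replicate 2 or E2 replicate 2 was left out, and it reached 7 without GDX replicate 4.

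Of 16 tested inhibitors of the pathway 1 rose, Socs1, and 15 did not pass, with a median log2 fold change of 0.12. Without GDX replicate 4, 591 of all 17882 tested genes were called higher, and 4.91% were called in either direction. In that fit 5 of the 16 inhibitors were called higher and 0 lower. Among them were Socs1, Socs3 (log2 fold change 1.21), Trib2 (0.40) and Grb10 (0.33), an adaptor that restrains both receptors. Their edgeR adjusted p values in that fit were 0.0419, 0.0344, 0.0456 and 0.00902. Grb10 had 241, 240, 247 and 281 CPM in GDX and 318, 291 and 307 CPM in E2, without overlap, and missed the threshold with all libraries (log2 fold change 0.28 ± 0.08, edgeR adjusted p = 0.0695). Gsk3b, a kinase gene that AKT signalling restrains, was also called without GDX replicate 4 (0.28, edgeR adjusted p = 0.0380) and did not pass with it (0.20 ± 0.09, edgeR adjusted p = 0.298). Socs3 and Trib2 are named because they belong to that count, after their values were seen.

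Apart from Map2k1, the genes of highest level per kilobase in each group, which the naming rule adds, did not pass. Igf2, the second IGF ligand, had 24.2, 33.1, 22.1 and 237 CPM in GDX and 34.2, 40.6 and 25.7 CPM in E2. As for Igf1, GDX replicate 4 alone was high, and the log2 fold change of −1.24 ± 1.07 became 0.34 without it (edgeR adjusted p = 0.663 and 0.436). Igf2r, a receptor that clears IGF2, differed by −0.06 ± 0.13. Igfbp7 had 27.9, 21.0, 16.1 and 56.5 CPM in GDX and 9.68, 14.5 and 15.8 CPM in E2, without overlap (log2 fold change −1.19 ± 0.48, edgeR adjusted p = 0.286). Igfbp7 shares 85 bp of exon with the opposite-strand Polr2b, at 89.2 to 151 CPM, and its level is uncertain.

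Among signalling genes, the adaptors Grb2 and Crk differed by 0.02 ± 0.08 and −0.11 ± 0.08 on the log2 scale, and Akt1 and the PI3 kinase subunit gene Pik3r2 by 0.09 ± 0.08 and −0.09 ± 0.10. Gsk3a differed by 0.06 ± 0.09, the phosphatase gene Ptprf by 0.18 ± 0.08 and Mapk3, which encodes ERK1, by 0.18 ± 0.07. The binding-protein protease gene Htra1 differed by −0.37 ± 0.13. Glucose transporter genes differed by −0.81 ± 0.30 for Slc2a1, the transporter of the blood-brain barrier, and by −0.03 ± 0.07 for Slc2a3, the neuronal one. Slc2a1 had 156, 101, 95.7 and 192 CPM in GDX and 59.4, 93.0 and 80.5 CPM in E2, without overlap (edgeR adjusted p = 0.243). The groups also did not overlap for 16.5% of all tested genes. Endothelial, mural, astrocyte and ependymal scores were likewise lower in E2 without overlap. So were 3 of the 7 endothelial markers (Cldn5, Flt1 and Tek). Of the astrocyte markers, Gfap, Aqp4, Gja1 and Sox9 were too, and Aldh1l1, Slc1a3, Slc1a2 and Fgfr3 were not. The part of any cell type in the level of Slc2a1 was not tested. The insulin genes Ins1 and Ins2 were at 0 in every library, and they, Igfbp1 and Igfals did not enter the test.

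**Figure D5:**
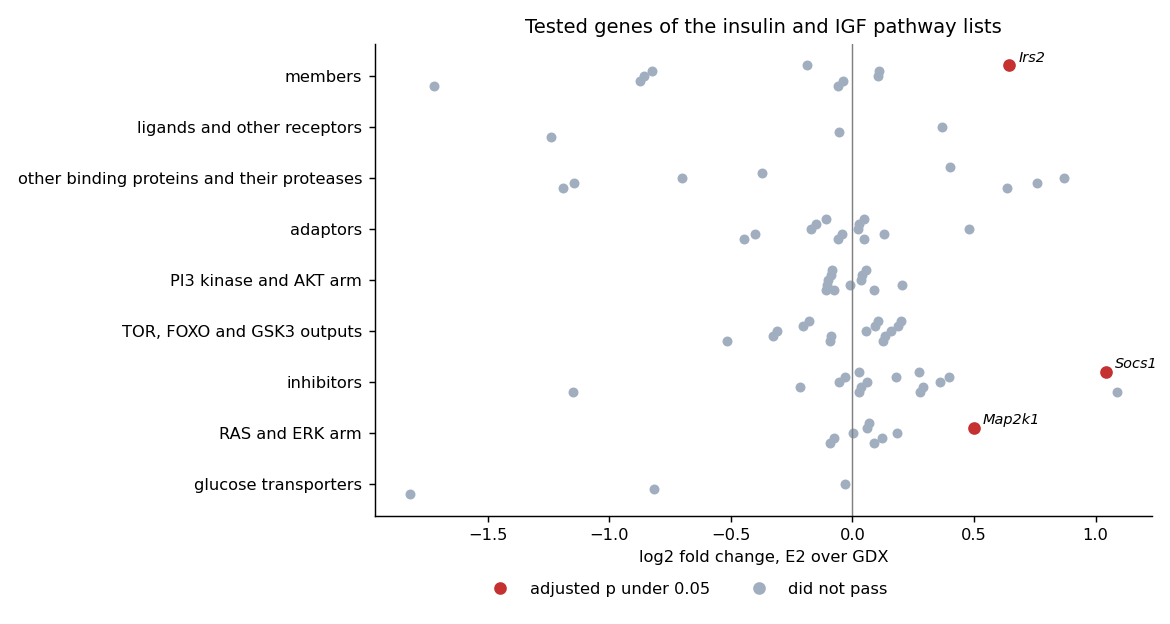
Log2 fold change, E2 over GDX (x axis), of each tested gene in the 10 genes described first (labelled members) and the 8 wider pathway groups. The 3 genes past an adjusted p of 0.05, in red, are Irs2 (0.65), Socs1 (1.04) and Map2k1 (0.50), and all 3 lie to the right of 0.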

How the data were processed

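RiboTag RNA of 7 libraries was analysed. The values the authors deposited are expected counts, of which 33.1% of non-zero values were not whole numbers (any decimal part). Trimmomatic 0.38, STAR 2.6.0a, RSEM 1.3.0 and the build mm10 are named, per the submitters' processing notes. The libraries were unstranded and polyA-enriched, per the labels' protocols, and the annotation used for counting is not given in the sources used here. Reads from overlapping genes on opposite strands can therefore not be told apart. Identifiers were matched to GENCODE on GRCm38, where 55203 of 55384 matched.

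Expected counts were rounded and fitted in R 4.3.3 with edgeR 4.0.16 (quasi-likelihood test, TMM factors, robust dispersions, filterByExpr with a minimum count of 10 and total of 15), with Benjamini-Hochberg adjustment over all 18282 tested genes. CPM use the scaled library sizes, log2 fold changes a prior count of 0.125, and SEs come from the F statistic. Level per kilobase uses the union of annotated exons. Marker scores average log2 CPM (prior count 2) over markers, compared by two-sided exact permutation over 35 splits, and the non-neuronal score averages 62 glial, vascular, leptomeningeal, choroid and ependymal markers. The floor of 3 counts covers counting error only.

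Alternatives were other scalings, filters and dispersions, DESeq2 1.42.0, limma-voom (limma 3.58.1), a replicate block, the covariate, a stricter threshold, and left-out libraries. The scripts were tested on simulated data. No pair of libraries agreed within sampling noise (lowest chi-square per degree of freedom 14.3). All 10 genes are named, and from the wider lists every called gene and the 2 with the highest level per kilobase of each. The 10 genes, the wider lists and the markers were chosen with earlier results of these data known. The values of 1 gene of the wider lists are not reported here.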

Additional observations from a re-analysis of the deposited data

Results flagged for a closer look

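Of 39 gene levels and marker scores examined in the GDX group, 7 had 1 library farther from the rest than Dixon's limit, where chance flags about 1 in 20. In 5 of them GDX replicate 4 was high: Igf1 at 6.81 CPM, Igfbp2 at 61.0 CPM, Igfbp3 at 12.7 CPM, Igfbp4 at 34.2 CPM and Igf2 at 237 CPM. Grb2 was high in GDX replicate 3, at 236 CPM. The oligodendrocyte marker score was high in GDX replicate 1, at 8.05. Groups of 3 libraries, as in E2, were not examined this way.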

How the results depend on the processing

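Irs2 was called in all 18 alternatives, and none of the other 9 genes was called in any, where Igf1 was not tested at a mean of at least 5 CPM and DESeq2 gave Igfbp2 no adjusted p. The count of all called genes was 1400 with DESeq2 (725 lower), 1082 with limma-voom (398 lower), 1609 without a filter (722 higher, 887 lower) and 360 at an adjusted p under 0.01 (275 higher, 85 lower). With the non-neuronal score as covariate 157 genes were lower. With 1 library left out, the count ranged from 364 to 974, with 268 to 591 higher and 96 to 428 lower. Wider pathway genes called numbered 9 with DESeq2, 7 with limma-voom, 11 without a filter, 5 without GDX replicates 1 and 4, 1 at the stricter threshold, and 1 to 7 with 1 library left out.

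Among the named genes, directions turned only where the change was not called, and the cause was not tested. With the covariate the log2 fold changes were 0.14 for Insr, 0.38 for Igf1r, 0.18 for Irs1, 1.17 for Igf1, 0.77 for Igfbp2, 0.12 for Igfbp4, 1.14 for Igf2, 0.22 for Igf2r, −0.051 for Grb2 and −0.082 for Gsk3a. Without GDX replicates 1 and 4 they were 0.088 for Insr, 0.23 for Igf1r, 0.065 for Irs1, 0.27 for Igf1, 0.28 for Igf2, 0.15 for Igf2r, −0.038 for Grb2 and −0.070 for Gsk3a. With limma-voom Igf1r was 0.022 and Igf1 0.028, and with library sizes alone Grb2 was −0.037 and Gsk3a −0.0041. With 1 library left out, the ranges were −0.12 to 0.016 for Insr, −0.13 to 0.14 for Igf1r, −1.18 to 0.40 for Igf1, −1.54 to 0.34 for Igf2, −0.13 to 0.057 for Igf2r and −0.0036 to 0.086 for Grb2.

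The replicate numbers did not pair the samples (correlations of deviations −0.02, −0.038 and −0.055), and GDX replicate 4 has no partner. With the replicate block 612 genes were called, Irs2 among them (0.68), and Insr (0.020), Igf1r (0.14), Igf1 (0.45), Igf2 (0.34) and Igf2r (0.060) were positive.

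The kisspeptin neuron score difference was 0.70 to 0.81 with 1 library left out, where 6 libraries allow no p under 0.0667. Score differences ranged from −1.22 to −0.033 for leptomeningeal, −0.32 to 0.0062 for oligodendrocyte, −0.10 to 0.057 for microglial, −0.28 to 0.11 for choroid plexus and −0.0057 to 0.33 for neighbouring neuron markers with 1 library left out. The pan-neuronal difference was −0.053 and the choroid plexus difference 0.52 with medians over markers. Depth, at 29207544 to 36213127 counts, limits Igf1 most among the 10 genes, at 24 counts in its lowest library, and tested genes of the wider lists reached as low as 6 counts (Slc2a4).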
